A study of Mus musculus with 20 samples.

Results

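The 9 genes described here encode galectins (Lgals1 and Lgals3), S100 proteins (S100a4, S100a6, S100a10, S100a11 and S100a13) and annexins (Anxa1 and Anxa2). They were picked by symbol from 2 tables of RNA counts, and all 9 are listed in both, among 10696 genes for IL25R+ cells and 10580 for ST2+ cells. All 9 also passed the filter on low counts in each table. They were picked with their changes in these libraries already known, so their levels and differences are a description.

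Group 2 innate lymphoid cells (ILC2), lymphocytes without an antigen receptor that make type-2 cytokines, were sorted from thymi of young male wild-type (WT) mice. Sorting took cells high for the IL-25 receptor (IL25R+) or positive for ST2, the receptor of IL-33. All cells were cultured with IL-7 at 10 ng/mL, first for 12 h and, after a change of medium, for 24 h more. In the 4 groups of IL25R+ cells, the treatment was vehicle (PBS), recombinant IL-25 (10 ng/mL), recombinant IL-33 (10 ng/mL) or both for 24 h, and each group has 3 libraries (12 altogether). The 2 groups of ST2+ cells, vehicle and IL-33 at that dose and time, have 4 libraries each (8 altogether). Bulk MARS-seq, a barcoding method, counted RNA at transcript 3′ ends. Every library therefore averages a cultured, sorted population, in which fewer cells of a type and less RNA per cell cannot be told apart. Whether replicates are separate mice is not stated, so any p-value measures the spread between these samples, which may be technical.

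Galectins are lectins that bind galactose-containing sugars on glycoproteins, and they leave cells without passing through the classical secretory route. Galectin-1 (Lgals1) and galectin-3 (Lgals3) are known in the thymus for binding thymocyte surface glycans and influencing thymocyte survival. S100 proteins are small calcium sensors of the EF-hand type that change the activity of the proteins they bind. Annexins bind acidic membrane lipids when calcium rises, and S100 proteins pair with them: the product of S100a10 joins annexin A2 in a complex at the plasma membrane, and that of S100a11 binds annexin A1. Annexin A1 is also a glucocorticoid-induced protein that signals through formyl peptide receptors. In lymphocytes, transcripts of galectin-1, S100 and annexin genes are commonly high in activated and tissue-homing cells.

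The 5 S100 genes lie on mouse chromosome 3, among 13 S100a genes listed there (build GRCm38, positions from GENCODE M21, all protein-coding). S100a13 spans 3:90514435 to 90524581, S100a4 3:90603771 to 90606045, S100a6 3:90612882 to 90624181, S100a11 3:93520488 to 93526287 and S100a10 3:93555080 to 93564643, all on the plus strand. Lgals1 lies on chromosome 15 (78926725 to 78930465, plus strand), Lgals3 on chromosome 14 (47367751 to 47386160, plus), Anxa2 on chromosome 9 (69453620 to 69491795, plus) and Anxa1 on chromosome 19 (20373428 to 20390944, minus). S100a4 is overlapped on its own strand by Gm42674, whose transcript shares 302 bases with it at 100% identity. S100a11 has 2 processed pseudogenes, Gm12854 and Gm7665, whose transcripts match 297 bases of its own at 99.0% and 98.7% identity. None of these 3 is in the tables, and how reads that fit more than 1 of them were counted is not given in the sources used here, so values of S100a4 and S100a11 may include or lack such reads.

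Promoter sequences from RefSeq (GRCm38.p6), 250 bases before to 50 bases after the annotated start, were found for 7 of the 9 genes. They are shown as examples for S100a4, S100a6, S100a11 and Anxa2. Each runs 5′ to 3′ on the plus strand in lower case, with capitals where a searched motif matched on either strand. The windows are chr3:90603520-90603819 for S100a4, chr3:90612644-90612943 for S100a6, chr3:93520246-93520545 for S100a11 and chr9:69453433-69453732 for Anxa2.
S100a4: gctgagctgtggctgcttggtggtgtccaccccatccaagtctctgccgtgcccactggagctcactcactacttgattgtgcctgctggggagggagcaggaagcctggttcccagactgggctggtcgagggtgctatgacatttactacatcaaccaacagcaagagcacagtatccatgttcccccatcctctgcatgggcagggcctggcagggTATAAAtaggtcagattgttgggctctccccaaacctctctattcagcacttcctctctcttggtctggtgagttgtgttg
S100a6: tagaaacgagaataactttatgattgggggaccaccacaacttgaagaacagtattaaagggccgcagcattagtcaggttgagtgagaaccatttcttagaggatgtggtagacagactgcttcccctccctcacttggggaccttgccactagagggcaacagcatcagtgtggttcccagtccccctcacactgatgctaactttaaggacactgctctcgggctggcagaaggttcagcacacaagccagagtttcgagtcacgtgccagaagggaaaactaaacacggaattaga
S100a11: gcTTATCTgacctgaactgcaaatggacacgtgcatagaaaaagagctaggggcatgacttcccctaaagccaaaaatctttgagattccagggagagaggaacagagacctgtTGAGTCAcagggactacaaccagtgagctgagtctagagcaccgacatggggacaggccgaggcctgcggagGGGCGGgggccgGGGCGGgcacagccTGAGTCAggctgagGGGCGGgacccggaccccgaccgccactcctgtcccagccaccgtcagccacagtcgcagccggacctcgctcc
Anxa2: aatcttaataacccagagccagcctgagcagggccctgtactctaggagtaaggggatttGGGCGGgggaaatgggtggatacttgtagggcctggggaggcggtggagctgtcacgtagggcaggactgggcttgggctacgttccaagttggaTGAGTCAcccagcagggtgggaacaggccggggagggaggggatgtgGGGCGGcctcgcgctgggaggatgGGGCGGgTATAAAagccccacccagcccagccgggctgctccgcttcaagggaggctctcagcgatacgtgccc
AP-1 was searched as TGANTCA, and the motif of GATA factors, to which the ILC2 regulator Gata3 belongs, as AGATAA. The Sp1/KLF box, common in promoters without a TATA box, was searched as GGGCGG. The TATA box itself was searched as TATAAA. NF-kB, a family that acts downstream of both cytokine receptors, and STAT factors were searched as well, the latter as TTCNNNGAA. S100a4 held a TATA match from -31 to -26 and no other. The S100a6 window held no match. S100a11 held 2 AP-1 matches (from -136 and from -38), 1 GATA match and 3 Sp1/KLF matches, and Anxa2 held 1 AP-1 match (from -95), 3 Sp1/KLF matches and 1 TATA match. Of 32851 promoters of the same length, 7.81% held an AP-1 match, 11.2% GATA, 35.7% Sp1/KLF, 13.6% TATA, 8.3% STAT and 1.63% NF-kB. A match is a description of letters, and an absent match says only that these letters are not in this window.

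Total counts ran from 834913 to 1880906 in the IL25R+ libraries and from 537999 to 5453444 in the ST2+ libraries. Levels below are CPM, counts divided by the library size after edgeR's TMM scaling. Changes are edgeR log2 changes ± standard error (SE), and a gene is said to pass where its Benjamini-Hochberg adjusted p over all genes tested was under 0.05. The IL25R+ libraries fell into 2 sets by Glycam1, a gene of a mucin-like glycoprotein. It was at 116 to 439 CPM under vehicle, under both cytokines and in IL-33 library 3, and it did not exceed 0.731 CPM in the remaining 5, where Aire, a gene of thymic epithelium, was at 24.4 to 36.3 CPM and, in IL-33 library 1, at 10820 CPM. This split lies across IL-25 against vehicle and across both against IL-25. The comparisons are therefore also given with the split as a term, whose size is set by the IL-33 group alone (library 3 against the rest). Among ST2+ libraries IL-33 library 2 stood apart: Il13 was at 3331 CPM there and at 9129 to 12730 CPM in the other IL-33 libraries, and Areg had 1 count. Results of the ST2+ cells are given with and without it. Leaving it out also selects the IL-33 libraries by the level of an ILC2 cytokine. Over all genes 1262 passed with it and 2581 without it, so the larger counts without it are a description only. Of 13 ILC2 markers 12 were listed for IL25R+ cells and 13 for ST2+ cells, with summed levels of 498 to 1209 and 2748 to 17320 CPM. Areg was not listed for IL25R+ cells. In those, Il1rl1, which encodes ST2, was at 9.21 ± 2.23 CPM with vehicle and Il17rb, which encodes the IL-25 receptor, at 22.98 ± 9.83 CPM (SD, n = 3).

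IL-25 against vehicle asked how IL25R+ cells respond to the cytokine whose receptor they were sorted on. With IL-25 both galectins, S100a4, S100a6 and Anxa2 were 2.24 to 2.94 times their vehicle level, and the other 4 genes were 1.15 to 1.43 times. These 5 of 9 passed, all higher, where 15% of all 8850 genes passed in either direction. Because the genes were picked with this comparison known, nothing is read from that count. The median log2 change was 1.16 over the 9 genes and -0.03 over all genes tested.

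Lgals1, whose product crosslinks surface glycans as a dimer, held 1925, 2220 and 2110 CPM in the vehicle libraries, 5864, 5878 and 6649 with IL-25, 2075, 1614 and 2074 under IL-33, then 4637, 5566 and 5867 under both cytokines. The 6 libraries that received IL-25, alone or with IL-33, all lay above the 6 that did not. The log2 change was 1.56 ± 0.117 with IL-25, -0.12 ± 0.115 with IL-33 and 1.36 ± 0.117 with both, each against vehicle. Values with IL-25 and with both overlapped, at a log2 difference of -0.19 ± 0.114.

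Lgals3, which encodes the galectin that joins a carbohydrate-binding domain to a self-associating tail, held 1813, 1854 and 1843 CPM with vehicle, 3953, 4345 and 4042 with IL-25, 1685, 1967 and 1597 under IL-33, then 3245, 2895 and 3121 under both. The order was IL-25, then both, then vehicle and IL-33, and only the last pair overlapped. The log2 change against vehicle was 1.16 ± 0.102 with IL-25 and 0.75 ± 0.101 with both. With IL-33 it was -0.07 ± 0.101. Lgals3 was lower with both cytokines than with IL-25 alone without overlap, by a log2 change of -0.41 ± 0.101, where the values of Lgals1 overlapped. With a term for the split by Glycam1, Lgals3 was at -0.22 ± 0.164 and Lgals1 at -0.36 ± 0.188, and neither passed. Whether the 2 galectins differ in this was not tested.

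S100a4, whose product binds non-muscle myosin and is linked to cell motility, held 2880, 3173 and 2599 CPM with vehicle, 7299, 6050 and 6477 with IL-25, 3050, 2497 and 1785 under IL-33, then 2996, 3442 and 3735 under both. The 3 IL-25 libraries were above all other 9, and the values with both overlapped those with vehicle and with IL-33. Its log2 change was 1.20 ± 0.144 with IL-25 and 0.23 ± 0.142 with both. With both it was at 0.513 times the level with IL-25 alone (log2 change -0.96 ± 0.143). These groups lie on either side of a split of the libraries by Glycam1, and once a term for it was fitted that was 0.797 times (-0.33 ± 0.189) and did not pass.

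S100a6, which encodes calcyclin, held 794, 909 and 772 CPM with vehicle, 2148, 1768 and 1762 with IL-25, 910, 715 and 665 under IL-33, then 1111, 1325 and 1511 under both. The groups stood in 3 tiers without overlap, IL-25 over both over the pair of vehicle and IL-33. Its log2 change was 1.20 ± 0.137 with IL-25, 0.67 ± 0.136 with both and -0.11 ± 0.137 with IL-33. S100a6 lies near S100a4 on the chromosome, with S100a5 between them. The pair had the same log2 change with IL-25 to 2 decimals. With the split by Glycam1 as a term S100a6 was at 0.91 ± 0.217 and S100a4 at 0.56 ± 0.188. With both cytokines S100a4 was at 0.23 ± 0.142, below S100a6.

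S100a10, the S100 protein that does not need calcium to bind its annexin partner, held 1712, 2017 and 1880 CPM with vehicle, 2333, 1920 and 2196 with IL-25, 1823, 1544 and 1406 under IL-33, then 1349, 1592 and 1612 under both. The vehicle values overlapped those of either cytokine alone and lay above those with both. No change of S100a10 against vehicle passed, and the largest was -0.30 ± 0.119, with both.

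S100a11, whose product binds annexin A1 and acts in membrane repair, held 441, 441 and 265 CPM with vehicle, 754, 416 and 471 with IL-25, 498, 413 and 208 under IL-33, then 121, 161 and 201 under both. The 3 libraries with both cytokines were below all 9 others, while the other groups overlapped. The log2 change was -1.24 ± 0.263 with both, 0.52 ± 0.253 with IL-25 and -0.03 ± 0.255 with IL-33. S100a11 was the only 1 of the 9 genes whose change with both was lower than vehicle and passed.

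S100a13, whose product takes part in the non-classical release of growth factors, held 444, 472 and 485 CPM with vehicle, 603, 497 and 664 with IL-25, 479, 371 and 421 under IL-33, then 361, 405 and 442 under both. Its IL-25 values lay above vehicle without overlap, and those with both lay just below it. Neither change passed, at log2 changes of 0.33 ± 0.131 and -0.21 ± 0.131. The IL-25 change passed when IL-25 library 2 or IL-33 library 3 was left out, and both it and that of S100a11 passed when these groups were fitted alone.

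Anxa1 was the lowest counted of the 9, at 30.1, 41.0 and 47.4 CPM with vehicle, 56.4, 43.2 and 55.0 with IL-25, 29.95, 35.45 and 21.2 under IL-33, then 21.8, 23.0 and 32.5 under both. Each treated group overlapped vehicle, and the IL-25 values lay above those with both. None of its changes against vehicle passed, at 0.41 ± 0.22 with IL-25, -0.41 ± 0.239 with IL-33 and -0.59 ± 0.236 with both.

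Anxa2, the annexin partner of the S100a10 product, held 157, 162 and 151 CPM with vehicle, 382, 471 and 406 with IL-25, 175, 190 and 153 under IL-33, then 324, 287 and 326 under both. As with Lgals3 and S100a6, IL-25 stood over both, and both over the overlapping pair of vehicle and IL-33. The log2 change was 1.42 ± 0.126 with IL-25, 0.15 ± 0.129 with IL-33 and 0.996 ± 0.126 with both. Anxa2 and the gene of its partner S100a10 thus had unlike changes with IL-25, at 2.68 and 1.15 times vehicle.

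**Figure D1:**
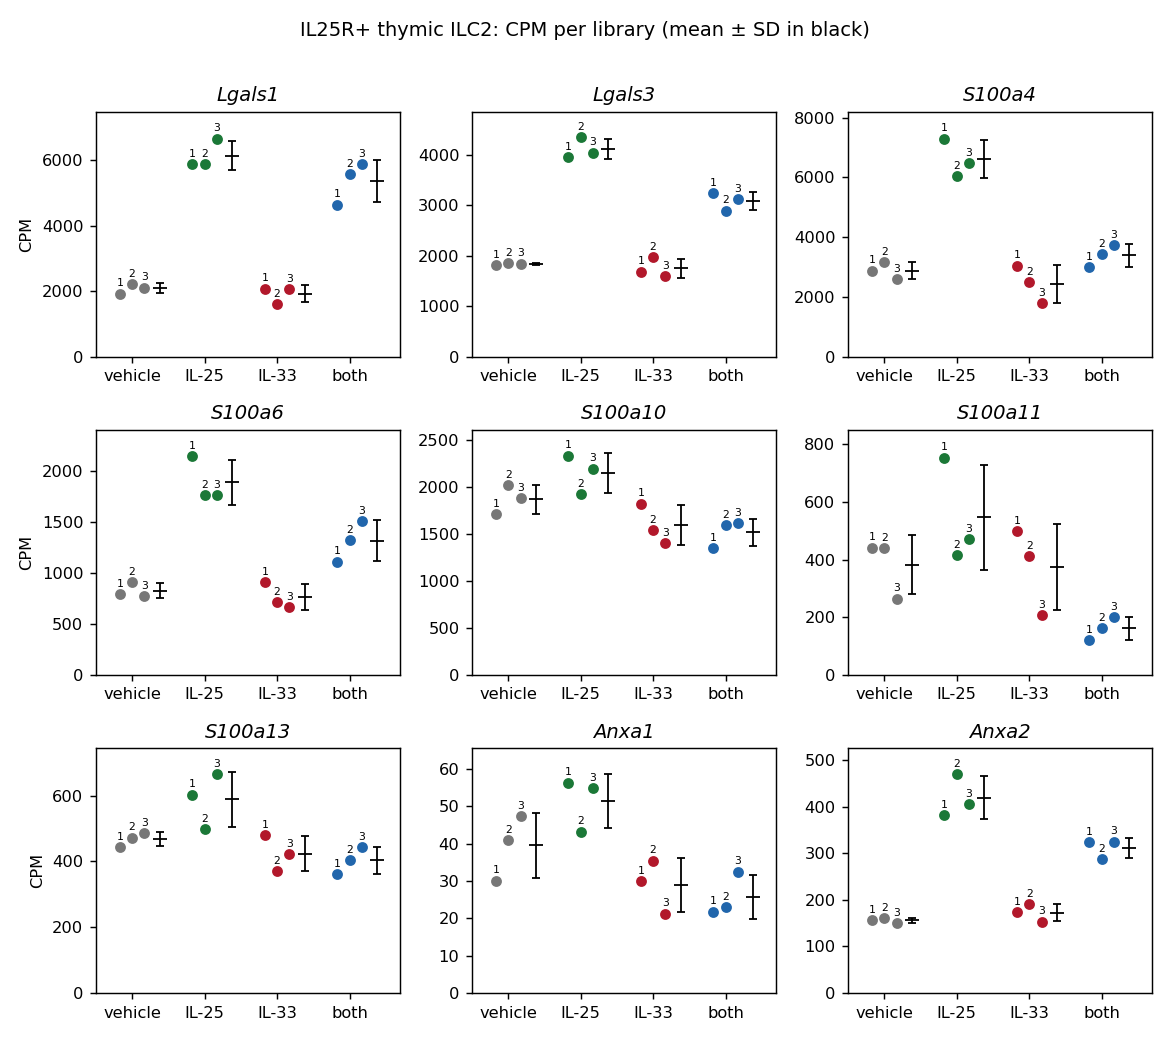
CPM of each of the 9 genes in the 12 IL25R+ libraries (points, numbered by replicate; the black bar is mean ± SD, n = 3) under each treatment. Lgals1, Lgals3, S100a6 and Anxa2 are high in both groups that received IL-25, S100a4 in the IL-25 group, and S100a11 is low with both.

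With a term for that split in the fit, 4 of the 5 changes with IL-25 passed, where 7.29% of all genes did. Lgals1 was at 1.73 ± 0.186, Anxa2 at 1.17 ± 0.213, Lgals3 at 0.97 ± 0.163 and S100a6 at 0.91 ± 0.217, and S100a4 went to 0.56 ± 0.188 and did not pass. S100a11 (-0.61 ± 0.356), Anxa1 (-0.21 ± 0.43) and S100a10 (-0.06 ± 0.191) turned sign with it without passing. Markers of ILC2 and of other cells differed between these groups. The summed level of the listed ILC2 markers was 498 to 570 CPM with vehicle and 1022 to 1172 with IL-25. In the fit without the term 6 of the 10 tested passed as higher, where 15% of all genes passed in either direction. Passing markers below are from that fit. The summed level of the 7 listed of 9 T cell markers was 1121 to 1228 CPM with vehicle, 812 to 872 with IL-25, 1051 to 1274 under IL-33 and 736 to 788 under both, with Dntt at 647 ± 25.9 CPM with vehicle and 353 ± 22.6 with IL-25. Dntt was the 1 of 6 tested T cell markers that passed as lower, and their median log2 change was -0.02. The 3 listed of 8 fibroblast markers summed to 27.5 to 37.95 CPM with vehicle and 2.13 to 6.96 with IL-25, where Col1a2 and Dcn were at 0. Their sums were 26.1 to 35.0 CPM with both cytokines, and 7.31, 7.23 and 34.2 CPM in IL-33 libraries 1, 2 and 3. Fibroblast sums thus divided the libraries in the same way as Glycam1 did. Of 4 endothelial markers Pecam1 alone was listed, at 77.8 to 85.5 CPM with vehicle and 151 to 165 with IL-25. It passed as higher. Of 5 markers each of B cells and of mast cells and basophils, 2 and 1 were listed. The 1 tested marker of each passed as higher. The part of these markers in the changes was not tested.

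IL-33 against vehicle asked whether IL25R+ cells also respond to the other alarmin. None of the 9 genes passed, where 0.237% of all genes did, and the groups overlapped for all 9, where they did not for 14.5% of all genes. The count by edgeR was 0 at an unadjusted p under 0.05 as well, and it was 0 by DESeq2 and by limma-voom. The log2 changes ran from -0.41 ± 0.239 for Anxa1 to 0.15 ± 0.129 for Anxa2, and the median was -0.12. With the split as a term 1 of 9 passed, where 2.4% of all genes did: S100a4 was lower, at -0.69 ± 0.155.

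Both cytokines against vehicle compared groups on the same side of the split. Lgals1, Lgals3, S100a6 and Anxa2 passed as higher and S100a11 as lower, so 5 of 9 passed where 15.6% of all genes did. The median over the 9 genes was 0.23, and -0.03 over all genes. With the split as a term S100a10 passed too, at -0.30 ± 0.105, so 6 of 9 did, where 19.5% of all genes did. Against IL-33 alone, both cytokines gave higher Lgals1 (1.48 ± 0.117), Anxa2 (0.85 ± 0.124), Lgals3 (0.82 ± 0.102), S100a6 (0.78 ± 0.136) and S100a4 (0.47 ± 0.142) and lower S100a11 (-1.21 ± 0.262). These 6 of 9 passed, where 17.2% of all genes did. The values of S100a4 overlapped between these groups. It did not pass with these groups fitted alone, nor when IL-33 library 3, or library 2 or 3 of the combined treatment, was left out. With the split as a term 5 of 9 passed, where 7.33% of all genes did, and S100a11 (-0.36 ± 0.287) did not.

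IL-33 added to IL-25 was read from both cytokines against IL-25 alone. Of the 9 genes 8 were lower without overlap and passed, and Lgals1 did not pass. Of all genes 3.14% passed in either direction and 1.79% as lower, and 13.3% were lower without overlap. The median was -0.53 over the 9 and 0.00 over all genes. S100a11 had the lowest value, at -1.76 ± 0.262, followed by Anxa1 at -0.999 ± 0.22 and S100a4 at -0.96 ± 0.143. S100a13 (-0.55 ± 0.13), S100a6 (-0.53 ± 0.135), S100a10 (-0.50 ± 0.119), Anxa2 (-0.43 ± 0.119) and Lgals3 (-0.41 ± 0.101) made up the rest. With the split as a term 0 of the 9 passed by edgeR (1 at an unadjusted p under 0.05), where 0.0565% of all genes did. All 9 stayed below 0 in that fit, from -0.63 ± 0.354 for S100a11 to -0.18 ± 0.21 for Anxa2. Without IL-25 library 1 or 3, or without library 1 or 2 with both, 2 passed, and without IL-25 library 2, 5 did. Over all genes leaving out 1 library gave 80 to 620, where all libraries gave 278.

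The interaction asks whether the change with both differs from the sum of the changes with each cytokine. It was below 0 for all 9 genes, and S100a11 alone passed, at -1.73 ± 0.364, where 2.35% of all genes did. S100a4 was next, at -0.72 ± 0.201, and Anxa1 (-0.59 ± 0.326) and Anxa2 (-0.57 ± 0.176) followed. Lgals1 was the nearest to additive in this fit, at -0.08 ± 0.162. With the split as a term no gene of the 9 passed, where 0.158% of all genes did, and the signs were mixed. Anxa1 (0.48 ± 0.729), S100a4 (0.37 ± 0.306), S100a11 (0.25 ± 0.581), S100a10 (0.17 ± 0.305) and S100a6 (0.07 ± 0.351) were then above 0. Lgals3 (-0.02 ± 0.264), Anxa2 (-0.15 ± 0.346), Lgals1 (-0.36 ± 0.299) and S100a13 (-0.39 ± 0.352) were below 0. S100a11 also lost its call without vehicle library 3, IL-25 library 1 or library 2 with both, and by DESeq2, where S100a4 passed in its place.

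**Figure D2:**
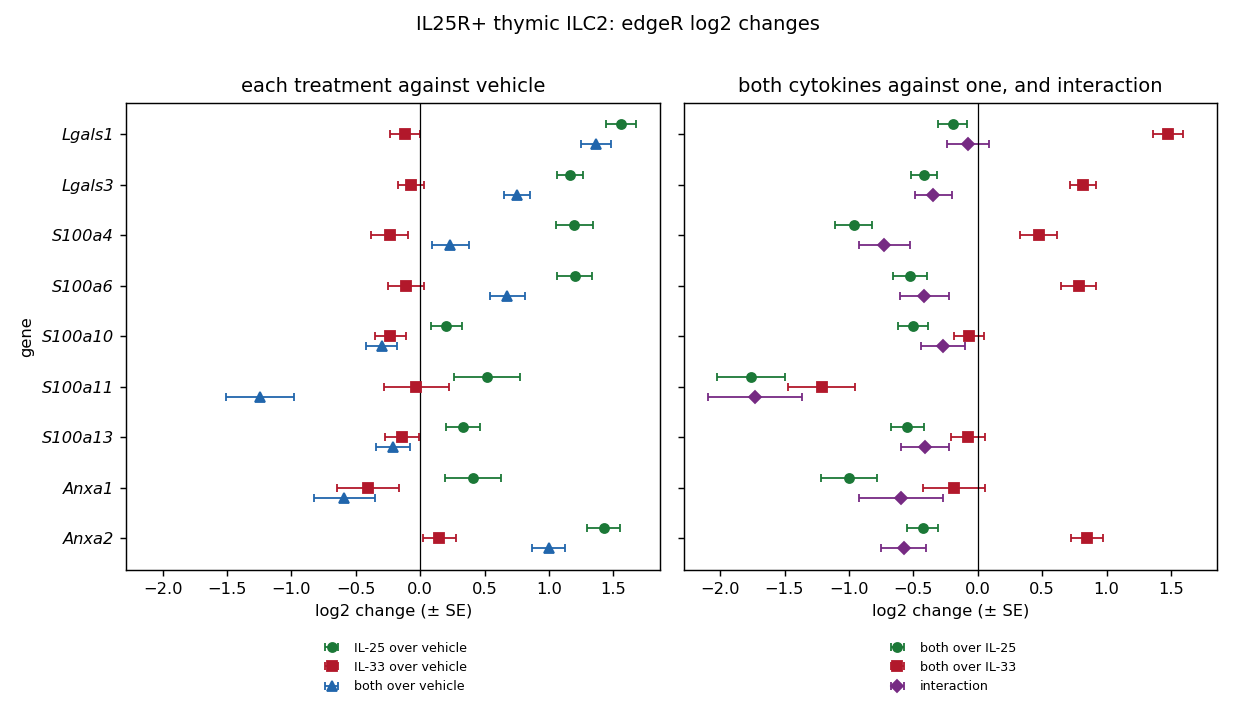
edgeR log2 changes ± SE of the 9 genes in IL25R+ cells: left, each treatment against vehicle; right, both cytokines against each alone and the interaction (n = 3 libraries per group). Lgals1 sits near 0 for both over IL-25, the other 8 genes lie below it, and S100a11 is the lowest on both sides.

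The 9 genes moved in different combinations across the libraries. Over the 12 IL25R+ libraries, which fall into 4 treatment groups, Pearson's r of log2 CPM was 0.988 for Lgals3 and Anxa2, 0.94 for Lgals1 and Lgals3 and 0.94 for S100a4 and S100a6. A second combination held S100a10 with S100a13 (0.908) and with Anxa1 (0.903). S100a10 and its partner Anxa2 were at 0.283, and S100a11 was at -0.132 with Lgals1. Over the 8 ST2+ libraries S100a6 and S100a11 were at 0.956, S100a4 and S100a10 at 0.919, and Lgals1 and Lgals3 at -0.695. Pairs share treatment, depth and the libraries that stood apart, so these values describe the libraries only.

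**Figure D3:**
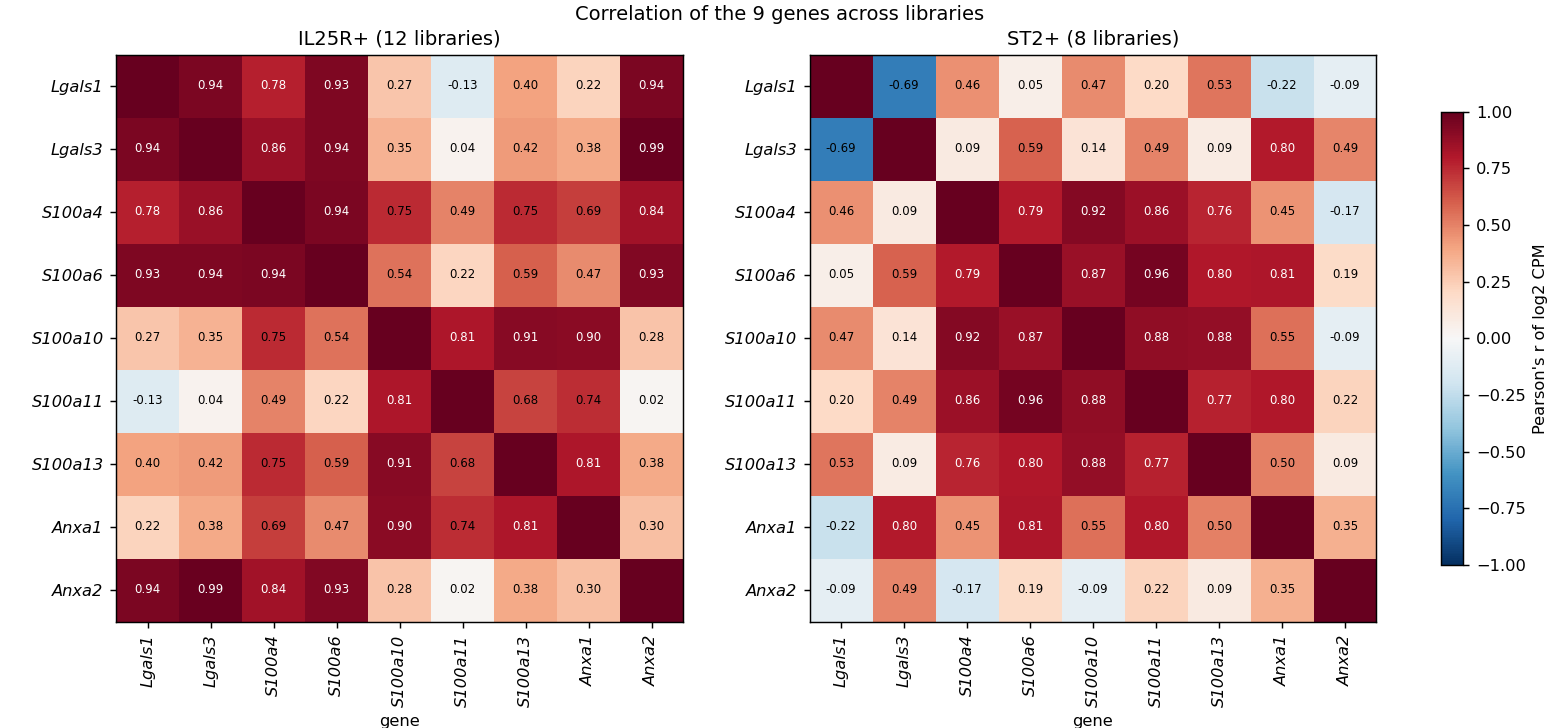
Pearson's r of log2 CPM between the 9 genes, over 12 IL25R+ libraries (left) and 8 ST2+ libraries (right). Lgals1, Lgals3, S100a6 and Anxa2 are close to each other in IL25R+ cells, and the 5 S100 genes in ST2+ cells.

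Outside the 9, the gene most like Lgals1 over the 12 IL25R+ libraries was Ifitm2 (r = 0.99), among 7705 genes with a mean of at least 10 CPM. Pou2f2, a transcription factor, was most like Anxa2 (0.981) and second for Lgals3 (0.971). Ppib was closest to S100a4 (0.97), Ly6e to S100a6 (0.976), Rpl36al to S100a10 (0.986), Ppia to S100a11 (0.974), Dynlrb1 to S100a13 (0.933) and Dpcd to Anxa1 (0.96). Over the 8 ST2+ libraries, among 6634 genes, they included Mvd for Lgals1 (0.979), Rabac1 for S100a6 (0.994), Gng5 for S100a11 (0.985) and Rps6ka3 for Anxa1 (0.983).

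In ST2+ cells IL-33 against vehicle asked how cells that carry the IL-33 receptor respond to it. Anxa1 and Lgals3 were lower with IL-33 and passed, so 2 of 9 passed where 16.5% of all 7626 genes did. Without IL-33 library 2 all 5 S100 genes were lower as well and 7 of 9 passed, where 32.3% of 7998 genes did. That count of 7 was the highest for any 1 library left out. The median log2 change was -0.44 over the 9 genes with that library and -1.35 without it, and 0.00 and -0.02 over all genes. Neither call held without vehicle library 2 or 3 or IL-33 library 1 or 4, and 1 of them held without vehicle library 1.

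Lgals3 held 407, 1102, 983 and 412 CPM in the 4 vehicle libraries and 253, 145, 428 and 196 with IL-33. IL-33 library 3 overlapped the lower vehicle libraries, and the other 3 lay below all of them. Its log2 change was -1.50 ± 0.417 with all libraries and -1.28 ± 0.411 without IL-33 library 2. Lgals1 held 2501, 1671, 2705 and 3045 CPM with vehicle and 2557, 7014, 2790 and 2661 with IL-33. Apart from IL-33 library 2 the Lgals1 values overlapped, and the log2 change was 0.60 ± 0.367 with it and 0.13 ± 0.201 without it.

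Anxa1 held 23.3, 18.1, 103 and 17.4 CPM with vehicle, from 45, 10, 60 and 47 counts. With IL-33 it held 0.402, 3.34, 10.9 and 0.504 CPM, from 2, 3, 17 and 3 counts. All 4 IL-33 libraries lay below all vehicle libraries, and 3 of them were at 3 counts or fewer. The log2 change was -3.75 ± 1.01, and it ran from -5.54 without IL-33 library 3 to -2.78 without vehicle library 3. That library also held fibroblast markers at a sum of 520 CPM over the 7 listed of 8, against 0.518 to 26.6 in the other vehicle libraries and 0.402 to 62.7 with IL-33. Their part in the level of Anxa1 was not tested. Anxa2 held 30.5, 74.1, 127 and 58.1 CPM with vehicle and 61.1, 57.9, 87.1 and 54.8 with IL-33, and these overlapped (-0.11 ± 0.37).

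S100a6 held 472, 840, 883 and 476 CPM with vehicle and 96.8, 563, 165 and 92.5 with IL-33. IL-33 library 2 lay among the vehicle values and the other 3 were below all of them. The log2 change was -1.56 ± 0.545, which did not pass, and -2.48 ± 0.317 without that library, which did. With all libraries S100a6 passed by DESeq2 (-1.565, adjusted p = 0.0221) and by limma-voom (-1.97, adjusted p = 0.0199). S100a4 held 609, 430, 339 and 226 CPM with vehicle and 110, 1196, 173 and 84.4 with IL-33, so library 2 lay above and the other 3 below all vehicle libraries. Its log2 change was -0.05 ± 0.738 with that library and -1.71 ± 0.349 without it.

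S100a10 showed the same arrangement, with 786, 705, 707 and 879 CPM under vehicle and 272, 1394, 369 and 247 with IL-33. It was at -0.44 ± 0.493 with IL-33 library 2 and at -1.35 ± 0.182 without it. S100a13 held 233, 211, 360 and 285 CPM with vehicle and 141, 405, 130 and 161 with IL-33 (-0.39 ± 0.358, and -0.88 ± 0.194 without library 2). S100a11 held 36.8, 63.2, 84.3 and 25.5 CPM with vehicle and 1.61, 75.7, 16.01 and 2.02 with IL-33. From 8, 68, 25 and 12 counts with IL-33 its log2 change was -1.32 ± 1, and -3.31 ± 0.769 without library 2. It passed with all libraries by limma-voom (-3.40, adjusted p = 0.0137).

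**Figure D4:**
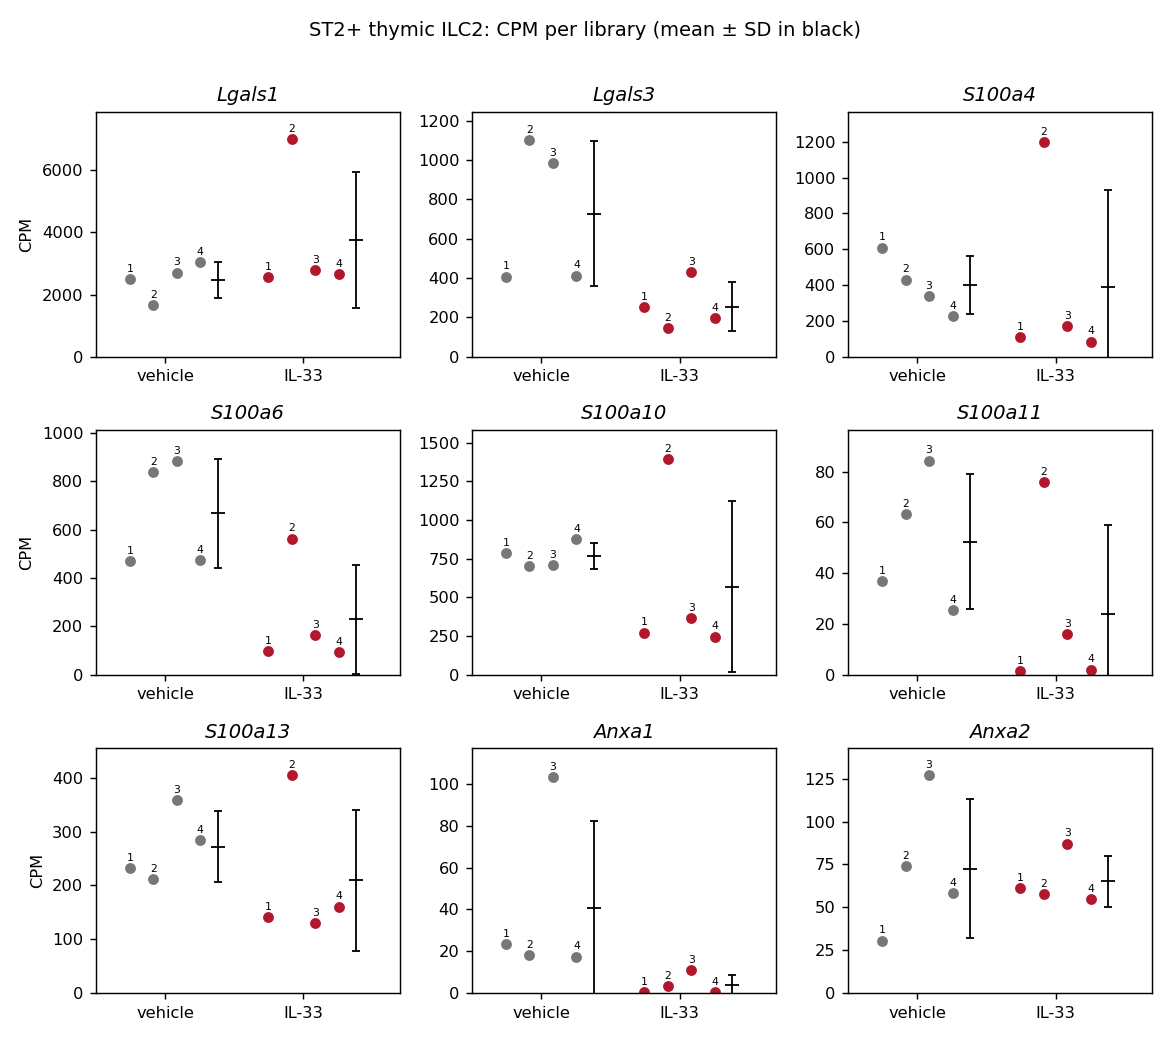
CPM of the 9 genes in the 8 ST2+ libraries (points, numbered by replicate; the black bar is mean ± SD, n = 4) under vehicle and IL-33. IL-33 library 2 is high for Lgals1 and the 5 S100 genes, and Anxa1 is at 0.402 to 10.9 CPM with IL-33 against 17.4 to 103 with vehicle.

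Depth and T cell markers also varied between the ST2+ libraries. Vehicle libraries 2 and 3 had 537999 and 593170 counts, and libraries 1 and 4 had 1782717 and 2736408. The 6 listed of 9 T cell markers summed to 146 and 145 CPM in libraries 2 and 3, and to 49.7 and 49.6 in libraries 1 and 4. Lgals3, S100a6, S100a11 and Anxa2 were also higher in libraries 2 and 3. S100a10 was lower there (705 and 707 CPM) than in libraries 1 and 4 (786 and 879 CPM). Lgals1, S100a4, S100a13 and Anxa1 did not divide in this way. With IL-33 the sums were 13.5, 25.6, 70.4 and 34.5 CPM in libraries 1 to 4. Those of libraries 1, 2 and 4 lay below every vehicle library, and library 3 was also the highest of these 4 for Lgals3, Anxa1 and Anxa2. Library 2 was the highest of them for Lgals1 and the S100 genes. The part of T cell markers and of depth in these changes was not tested.

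The change with IL-33 was then compared between the populations in a fit of all 20 libraries. Anxa1 had a lower change in ST2+ than in IL25R+ cells, by -3.46 ± 0.955, and was the only 1 of the 9 to pass, where 11.5% of 8964 genes did. By DESeq2 Anxa1 did not pass (-2.99, adjusted p = 0.0652) and Lgals3 did (-1.34, adjusted p = 0.0349). Leaving out 1 library moved the value of Anxa1 from -5.05 (without ST2+ IL-33 library 3) to -2.62 (without ST2+ vehicle library 3). Without ST2+ IL-33 library 2, 7 of 9 passed, all with the lower change in ST2+ cells, where 22.2% of 9000 genes did. In that fit S100a11 was at -3.37 ± 0.709, S100a6 at -2.32 ± 0.323, S100a4 at -1.42 ± 0.372, Lgals3 at -1.15 ± 0.395, S100a10 at -1.09 ± 0.226 and S100a13 at -0.70 ± 0.237. Lgals1 (0.29 ± 0.245) and Anxa2 (-0.07 ± 0.37) did not pass. With all libraries, 0 of 9 passed when IL25R+ vehicle library 1, IL25R+ IL-33 library 2, or ST2+ IL-33 library 1 or 4 was left out, and 2 when ST2+ vehicle library 1 or 4 or IL-33 library 3 was. Also with all of them, S100a4 was at 0.18 ± 0.799 and S100a6 at -1.44 ± 0.576.

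**Figure D5:**
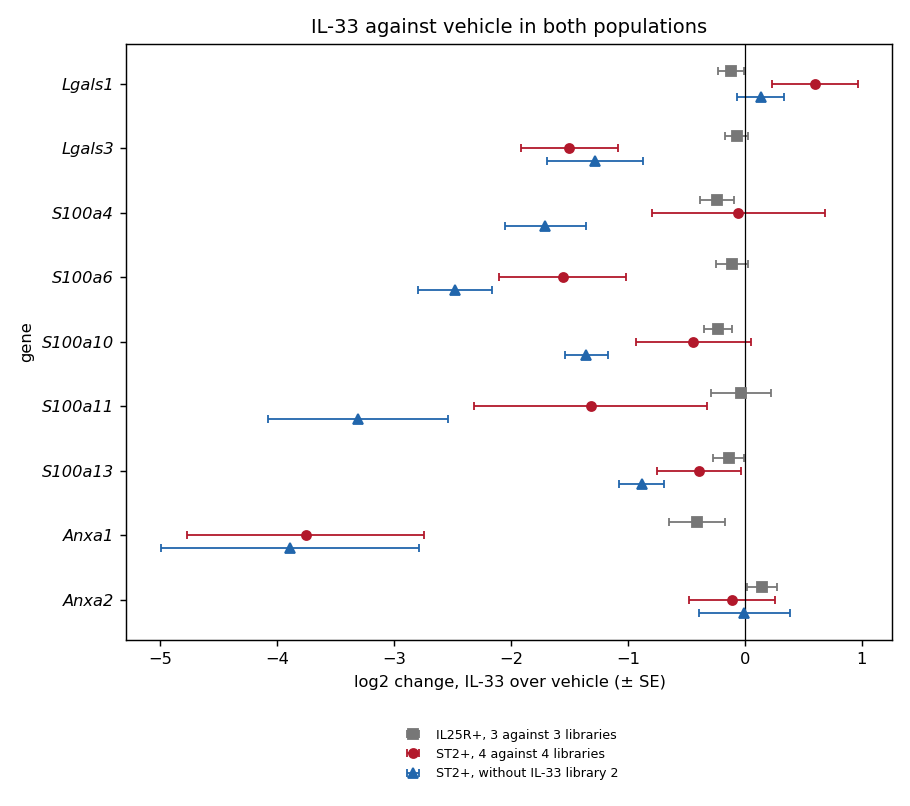
edgeR log2 changes ± SE of the 9 genes with IL-33 against vehicle in IL25R+ cells (3 against 3 libraries) and ST2+ cells (4 against 4, and without IL-33 library 2). In IL25R+ cells all 9 lie between -0.41 and 0.15, and in ST2+ cells Anxa1 lies at -3.75 with all libraries.

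Other members of these families were mostly absent from the tables or did not pass. Of all genes in IL25R+ cells, 15% passed with IL-25 and 15.6% with both cytokines, each against vehicle. In ST2+ cells 16.5% of all genes passed, and 32.3% without IL-33 library 2. Of 9 other galectin genes 3 were tested in IL25R+ cells. Lgals9, which encodes a galectin with paired binding domains that binds the receptor encoded by Havcr2, rose with IL-25 from 327 ± 30.7 to 526 ± 40.4 CPM (n = 3 each; 0.68 ± 0.122, edgeR adjusted p = 0.000491). With both cytokines it was at 0.37 ± 0.122 (edgeR adjusted p = 0.0409), which did not pass without any 1 of several libraries (0.0829 to 0.154). With the split as a term the IL-25 change was 0.49 and did not pass (edgeR adjusted p = 0.153). Lgals8 and Lgals3bp, a glycoprotein bound by galectin-3, did not pass against vehicle. In ST2+ cells 5 were tested and 0 passed by edgeR, with 2 at an unadjusted p under 0.05 and 1 each by DESeq2 and limma-voom. Without IL-33 library 2 Lgals9 (0.71 ± 0.211, edgeR adjusted p = 0.026) and Lgals3bp (0.83 ± 0.264, 0.0352) rose and Lgals8 fell (-1.43 ± 0.388, 0.0183). The change of Lgals8 with IL-33 was lower in ST2+ than in IL25R+ cells (-1.45 ± 0.424, edgeR adjusted p = 0.0289), a call lost without any 1 of several libraries (0.058 to 0.0939).

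Of 12 other genes on the S100 list, 2 were tested, S100a1 and S100pbp. Neither passed in any comparison by edgeR, DESeq2 or limma-voom, and at an unadjusted edgeR p under 0.05 the count was 1 for both cytokines against IL-33 and 0 elsewhere. Of 10 other annexins 4 were tested in each table. Anxa5, known for binding phosphatidylserine, rose with IL-25 from 40.1 ± 6.95 to 69.3 ± 18.1 CPM (n = 3 each; 0.81 ± 0.192, edgeR adjusted p = 0.0062). It rose with both (0.63 ± 0.193, edgeR adjusted p = 0.0283), though not without any 1 vehicle or combined library other than vehicle library 3 (0.0536 to 0.183). It lost the IL-25 call without vehicle library 1 (0.65, edgeR adjusted p = 0.0625) and with the split, where the change was as large (0.80, 0.179). Anxa4, Anxa6 and Anxa7 did not pass in IL25R+ cells. In ST2+ cells 0 of the 4 passed by edgeR, at an unadjusted p, by DESeq2 or by limma-voom, and Anxa7 rose without IL-33 library 2 (0.84 ± 0.283, edgeR adjusted p = 0.0435).

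Binding partners and receptors of these proteins formed a list of 21, of which 12 were tested in IL25R+ cells. With IL-25 3 rose and none fell, where 15% of all genes passed in either direction. Cd44, a hyaluronan receptor that is also a galectin ligand, rose from 2.63 ± 1.80 to 13.4 ± 1.99 CPM (n = 3 each; 2.47 ± 0.616, edgeR adjusted p = 0.00887), though not without vehicle library 1 (0.077). Ahnak, a large scaffold that binds the complex of annexin A2 and the S100a10 product, rose by 0.80 ± 0.201 (edgeR adjusted p = 0.00945). Bsg, a receptor for several S100 proteins, rose by 0.47 ± 0.139 (edgeR adjusted p = 0.0248). Fitted with the split, Ahnak was at 1.21 and Bsg at 0.04, and neither passed (edgeR adjusted p = 0.061 and 0.937). Without vehicle library 1 neither passed (0.0845 and 0.0738), nor did Bsg without library 2 or 3 of either group (0.0624 to 0.0875).

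With both cytokines Cd44 (2.38 ± 0.617), Itgb1 (0.74 ± 0.165) and Cacybp (0.50 ± 0.157), which encodes the calcyclin-binding protein, rose, and Spn (-0.39 ± 0.131), the galectin-1 counter-receptor CD43, fell (edgeR adjusted p = 0.0107, 0.00343, 0.0332 and 0.0467). Cd44 and Cacybp did not pass without vehicle library 1 (0.0957 and 0.157), and Cacybp and Spn did not pass without several other libraries either. In ST2+ cells, with 9 of the list tested, Bsg rose from 353 ± 33.7 to 741 ± 99.7 CPM (n = 4 each; 1.07 ± 0.192, edgeR adjusted p = 0.00474) and Ppp5c, a phosphatase that S100 proteins bind, from 166 ± 42.4 to 361 ± 69.7 CPM (1.10 ± 0.236, 0.0105). Without IL-33 library 2, 4 rose and 1 fell, where 32.3% of all genes passed in either direction. Cacybp was then at 1.97 ± 0.153 (edgeR adjusted p = 3.8e-05), Cd47 at 0.62 ± 0.147 (0.00994) and Ahnak at -0.80 ± 0.22 (0.0196). The change of Bsg and of Ppp5c with IL-33 was higher in ST2+ than in IL25R+ cells (0.97 ± 0.236 and 1.23 ± 0.275, edgeR adjusted p = 0.011 and 0.00605).

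Enzymes that build or cap the sugars galectins bind formed a list of 14, with 10 tested in IL25R+ and 11 in ST2+ cells. St6gal1, whose product adds sialic acid that hinders galectin-1 binding, fell in ST2+ cells with IL-33 from 72.4 ± 31.2 to 19.3 ± 2.10 CPM (n = 4 each; -1.94 ± 0.311, edgeR adjusted p = 0.00277). The fall passed without each ST2+ library in turn. St6gal1 also fell with IL-25 in IL25R+ cells, from 11.2 ± 3.57 to 3.21 ± 1.53 CPM (n = 3 each; -1.72 ± 0.446, edgeR adjusted p = 0.0113), and that call was lost with the split, where the change was larger (-2.20, 0.0676) and, for vehicle, without library 2 or 3 and, for IL-25, without library 1 or 3 (0.0502 to 0.059). Its change with IL-33 was lower in ST2+ than in IL25R+ cells (-1.89 ± 0.491, edgeR adjusted p = 0.0153), though not without IL25R+ vehicle library 1 or IL-33 library 2 (0.0643 and 0.0548). Man2a2, a mannosidase of complex glycan synthesis, fell with IL-33 in ST2+ cells (-1.68 ± 0.345, edgeR adjusted p = 0.00877), and the difference from IL25R+ cells was -1.33 ± 0.39 (0.0294). That difference did not pass without any 1 of 8 libraries (-1.36 to -1.14, edgeR adjusted p = 0.0513 to 0.0863). Mgat1, which starts complex glycan branches, fell with IL-25 (-0.62 ± 0.191, edgeR adjusted p = 0.0309). It turned to 0.17 with the split as a term and did not pass without any 1 of several libraries (0.0881 to 0.152). Mgat4a fell with both cytokines (-0.51 ± 0.162, edgeR adjusted p = 0.0344), though not without any 1 of several libraries (0.0609 to 0.166).

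The list of membrane repair and calcium-dependent membrane binding held 16 genes, of which 14 were tested in each table. Capn2, which encodes the large subunit of a calcium-activated protease, rose with IL-25 from 48.7 ± 5.63 to 86.3 ± 8.01 CPM (n = 3 each; 0.81 ± 0.149, edgeR adjusted p = 0.000636). It rose with both (0.85 ± 0.147, edgeR adjusted p = 0.000362), and it passed with the split as a term for IL-25 (1.04 ± 0.293, 0.0279). Capns1, the small subunit, rose with IL-25 by 0.57 ± 0.12 (edgeR adjusted p = 0.0022), and lost the call with the split, where it was at 0.52 (0.12). In ST2+ cells with IL-33 Capn2 was at 1.02 ± 0.276 and Capn1 at -0.78 ± 0.231 (edgeR adjusted p = 0.0292 and 0.041), and each lost the call without any 1 of several libraries (0.0511 to 0.105 and 0.0864 to 0.111). The change of Capn2 with IL-33 was higher in ST2+ than in IL25R+ cells (1.32 ± 0.349, edgeR adjusted p = 0.0171). Pdcd6, a calcium sensor that binds annexins, was lower with both than with IL-25 alone (-0.60 ± 0.149, edgeR adjusted p = 0.029), though not with the split (0.906) or without any 1 library of these groups (0.0557 to 0.164). Calm2, 1 of the calmodulin genes, had the only interaction of any list gene that passed in the fit without the split (-1.09 ± 0.238, edgeR adjusted p = 0.0207). It did not pass with the split as a term (-1.11, 0.264), without vehicle library 3 (0.0648) or without library 2 with both (0.0566). With the split as a term the interaction of 1 of the 12 tested partners and receptors passed, as lower, where 0.158% of all genes passed.

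With both cytokines against IL-33 alone Capn2 (1.10 ± 0.148, edgeR adjusted p = 2.25e-05), Ahnak (0.97 ± 0.207, 0.00244), Cacybp (0.60 ± 0.155, 0.0106) and Lgals9 (0.38 ± 0.121, 0.0319) were higher. Ager, a receptor of S100 proteins, was lower (-1.19 ± 0.371, edgeR adjusted p = 0.03), as were Calm2 (-0.64 ± 0.167, 0.0114), Mgat4a (-0.52 ± 0.159, 0.0262) and Pdcd6 (-0.51 ± 0.15, 0.0224). Of these 8, Capn2 and Cacybp alone passed with the split as a term. Ahnak was then at 0.70 (0.156), Calm2 at -0.65 (0.0671), Lgals9 at 0.52 (0.0507), Ager at -1.13 (0.231), Mgat4a at -0.48 (0.225) and Pdcd6 at -0.17 (0.639). Ager, Mgat4a, Lgals9 and Pdcd6 each lost the call in 6 alternatives, and Calm2 lost it without library 3 with both too (0.0536). With IL-33 alone 0 of the 45 genes of these 6 lists tested in IL25R+ cells passed by edgeR or limma-voom and 1 by DESeq2. Of all genes 0.237% passed by edgeR. At an unadjusted edgeR p under 0.05 there were 6 of the 45, and all genes were not counted at that threshold. With the split as a term 2 of the 12 partners and receptors tested passed as higher and 1 as lower, where 2.4% of all genes passed. No gene of the other lists passed in that fit. The lists' median log2 changes with IL-25 were 0.24 for other galectins, 0.19 for other S100 proteins and 0.25 for other annexins. They were 0.22 for partners and receptors, -0.17 for glycan enzymes and 0.20 for membrane repair, beside -0.03 over all genes.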

How the data were processed

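Bulk MARS-seq libraries of sorted thymic ILC2 (12 IL25R+ and 8 ST2+) were compared from the authors' 2 tables. Raw counts per gene were deposited by the authors, with a second set of columns named normalized. Those deposited signal values equal the counts divided by DESeq2 size factors recomputed here, within 1e-06, in all 12 and 8 libraries, and they were otherwise not used. The submitters' processing notes name bcl2fastq, cutadapt, STAR 2.5.2b, HTSeq, DESeq2 and build mm10. Whether the counts are reads or molecular identifiers is not given in the sources used here, nor is the strand setting, so antisense and overlapping genes may share reads.

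edgeR 4.0.16 in R 4.3.3 was run on the counts per table: filterByExpr (minimum count 10, minimum total 15, minimum proportion 0.7), TMM scaling, 1 coefficient per group, quasi-likelihood tests and Benjamini-Hochberg adjustment over all 8850 (IL25R+) or 7626 (ST2+) genes tested. SE is the log2 change divided by the root of F. The difference between populations used both tables, joined by symbol (8964 genes). Since population and table cannot be told apart, no level was tested between them. The steps were checked on simulated counts, with changes put into genes above a minimum count. A log2 change of 1 passed for 83% of the changed genes for IL-25 in IL25R+ cells. That share was 27% for IL-33 in ST2+ cells and 28% for the difference between populations. At a log2 change of 2 the shares were 100%, 94% and 85%. A gene that did not pass may therefore still have changed, above all in the last 2 of these comparisons. The other comparisons, among them IL-33 against vehicle in IL25R+ cells, were not simulated.

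The 9 genes, the lists of related genes and the tests were chosen with earlier results of these data known. Besides the 9, up to 6 passing genes per list and comparison are named, largest change first, and genes most like each of the 9 by Pearson's r of log2 CPM (prior count 2). Alternatives were DESeq2 1.42.0, limma-voom 3.58.1, DESeq2 size factors, other filters, a replicate block, the split of the libraries, the compared groups alone and leaving out each library. Precision rests on the total counts (537999 to 5453444) and on the spread between libraries. The common coefficient of variation between libraries of a group, by edgeR, was 0.128 for IL25R+ and 0.328 for ST2+ cells. No libraries agreed within sampling noise (chi-square per degree of freedom 1.83 to 52.4 between replicates). Gene positions come from GENCODE M21 (GRCm38) and promoters from RefSeq (GRCm38.p6).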

Additional observations from a re-analysis of the deposited data

Results flagged for a closer look

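By Dixon's gap test for groups of 4, which chance passes in about 1 of 20 groups, 1 library lay far from the others of its group for 6 of the 9 genes in ST2+ cells. Of all 7626 genes tested there, IL-33 library 2 was such a high library for 7.85% and a low one for 4.88%, and vehicle library 3 was a high one for 1.86%. IL-33 library 2 was the high one for Lgals1 (7010 CPM), S100a4 (1200 CPM), S100a6 (563 CPM), S100a10 (1390 CPM) and S100a13 (405 CPM). Its summed ILC2 markers were 5547 CPM, against 12760 to 17320 CPM in the other IL-33 libraries, and its TMM factor was 0.761. The part of this in the levels was not tested. Vehicle library 3 was the high one for Anxa1 (103 CPM) and also had the highest summed fibroblast markers of the vehicle group (520 CPM).

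The interaction of S100a11 passed by edgeR in IL25R+ cells, at -1.73 on the log2 scale. It was at 0.25 with the split as a term (edgeR adjusted p = 0.896), and it did not pass by DESeq2 (-1.73, adjusted p = 0.0502) or without any 1 of 3 libraries (edgeR adjusted p = 0.0517 to 0.0656). Its values were 121 to 201 CPM with both cytokines and 208 to 754 CPM in the other 9 libraries. The difference between populations in the change of Anxa1 with IL-33 passed by edgeR, at -3.46 on the log2 scale. It did not pass by DESeq2 (-2.99, adjusted p = 0.0652) or without any 1 of 4 libraries (edgeR adjusted p = 0.0532 to 0.066), and it ran from -5.05 to -2.62 over libraries left out. In ST2+ cells Anxa1 went from 40.5 ± 41.9 to 3.78 ± 4.92 CPM (SD, n = 4), and in IL25R+ cells from 39.5 ± 8.78 to 28.9 ± 7.17 CPM (SD, n = 3).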

How the results depend on the processing

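With IL-25 and with both cytokines against vehicle, the count of the 9 genes that passed stayed within 1.5 times its value under every alternative, and leaving out 1 library gave 5 to 6 and 5. With a term for the split of libraries the count was 1 for IL-33, 0 for both against IL-25 and 0 for the interaction, where S100a11 turned to 0.25, and Mgat1 with IL-25 turned to 0.17. In ST2+ cells limma-voom gave 4, and for the difference between populations it gave 3. Over all genes its counts lay within 1161 to 1693 and 1011 to 1393. These are the ranges of the alternatives other than leaving out 1 library, where the main fit gave 1262 and 1032. Leaving out 1 library gave 0 to 0 for IL-33 in IL25R+ cells, 2 to 8 for both against IL-25, 5 to 6 for both against IL-33, 0 to 3 for the interaction, 0 to 7 in ST2+ cells and 0 to 7 for the difference. In ST2+ cells no gene passed without vehicle library 2 or 3 or IL-33 library 1 or 4, 1 without vehicle library 1, and 7 without IL-33 library 2. For the difference, 0 passed without IL25R+ vehicle library 1, IL25R+ IL-33 library 2 or ST2+ IL-33 library 1 or 4. S100a4 in that difference ranged from -1.42 to 0.55, with the lowest value without ST2+ IL-33 library 2. The causes were not tested.

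Over all genes, counts moved most for IL-33 in IL25R+ cells, from 21 to 212 with that term, 36 by DESeq2, 10 by limma-voom, 8 at a mean of at least 10 CPM, 2 with no filter, 1 with the groups alone, and 0 to 151 without 1 library. With it they went from 1325 to 645 for IL-25, 278 to 5 for both against IL-25, 1519 to 649 for both against IL-33 and 208 to 14 for the interaction. With the groups alone they were 870 and 982 for both against IL-25 and against IL-33. Leaving out 1 library gave 832 to 1718, 779 to 1738, 80 to 620, 933 to 1928 and 45 to 701 for IL-25, both against vehicle, against IL-25, against IL-33 and the interaction, 619 to 2581 in ST2+ cells and 712 to 2002 for the difference.

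The labels do not say what a replicate number stands for. Correlations of the deviations of same-numbered libraries ran from -0.13 to 0.13 over 18 pairs in IL25R+ cells. In ST2+ cells all 4 were above 0 (0.019 to 0.25), but 2 of the 4 were under 0.1, so the numbers were not taken as pairs. With a replicate block, 4 of the 9 genes passed in ST2+ cells, where S100a6 (-1.93) and S100a11 (-2.47) joined Lgals3 and Anxa1, and 4 in the difference, and 6 for both against IL-25. In the other comparisons the count was unchanged by the block. Over all genes the counts with the block lay within 1161 to 1693 in ST2+ cells, 1011 to 1393 for the difference and 5 to 870 for both against IL-25. These are the ranges of the alternatives other than leaving out 1 library. Low counts limit Anxa1 (25 counts in all over the 4 ST2+ IL-33 libraries) and S100a11 there.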
